A study of Homo sapiens with 2 samples.

Results

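Natural cytotoxicity receptors, nectin-binding receptors, SLAM family receptors and TIM-3 were examined in NK92, an established human natural killer (NK) cell line. The 10 genes were taken by their symbols (NCR1, NCR3, CD226, CD96, TIGIT, CD2, CD244, SLAMF6, SLAMF7 and HAVCR2) from a table of 46427 genes, and each of the 10 was found. RNA came from 2 dishes of NK92 cells grown in medium with human serum and pre-incubated for 18 h. The control dish received no antibody, and the other dish received 10 µg/mL of PPMX-T003, an antibody that blocks TfR1, for 6 h. Each condition had 1 poly(A)-selected, stranded library, with 46766416 counts in the control and 43178462 counts in the PPMX-T003 library. No difference described here therefore has a replicate check, and no p-value is given. In the table the columns carry the names 0 h and 6 h, which were read here as hours of exposure. By the methods both dishes had the same culture time. If the names gave harvest times instead, harvest time and exposure could not be told apart. NK92 is a single line, and what it expresses need not hold for NK cells of the blood.

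NK cells decide on killing by adding up signals from activating and inhibitory receptors. Natural cytotoxicity receptors such as NKp46 (NCR1) and NKp30 (NCR3) are activating and signal through adaptor proteins with tyrosine motifs. DNAM-1 (CD226), TIGIT and CD96 compete for nectins and nectin-like ligands on the target cell, where CD226 activates and TIGIT inhibits. SLAM family receptors bind each other or CD48, and recruit the small adaptors SAP (SH2D1A) and EAT-2 (SH2D1B). CD2 is an adhesion and costimulatory receptor for CD58, and TIM-3 (HAVCR2) is a checkpoint receptor of exhausted T cells that NK cells also carry.

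Of the 10 receptor genes, 9 were expressed in NK92 cells, taken as a deposited TPM (a level per transcript length, which the authors rounded to whole numbers) of at least 1 in both libraries. The exception was CD226. In the counts, scaled as described below, none of the 10 differed 1.2-fold or more between the libraries, beside 12.2% of all compared genes higher and 12.4% lower. Among genes with as many counts as the 9 expressed receptors, these shares were only 1.93% and 4.71%. With the deposited TPM 1 receptor gene was lower (CD96, beside 13.1% of genes), as was 1 once a fit on length and GC content was removed (NCR1, beside 9.8%). CD96 and NCR1 lay lowest in the counts. Intervals for counting error lay below 0 for 4 of the 10 genes, CD96 and NCR1 among them, beside 34.8% of genes of like count. They lay above 0 for 2, beside 27.3%.

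In the NK marker list, 11 of 12 genes were expressed, with IL2RB the gene of most counts (56260 in the control and 55986 with PPMX-T003). KLRF1 was the NK marker not detected, with 3 and 0 counts, where a library with no more than 3 counts of a gene was taken as not detecting it. The summed TPM of the NK markers was 8052 in the control and 8610 with PPMX-T003. The summed TPM of the 11 T cell markers was 1108 and 1177, most of it from CD3E (673 and 698), while CD3D, CD3G, CD5, CD8A and CD8B had 0 counts in both libraries. Of the B cell markers reported, MS4A1 and CD22 had 0 counts, CD79B had 2 and 0 and CD79A had 14 and 12. PAX5 had the most counts (169 and 78), and these 5 genes together summed to a TPM of 2 and 1. The 8 myeloid markers summed to a TPM of 27 and 25, with CD68 the gene of most counts (188 and 268), MPO at 0 counts and LYZ at 2 and 0. Of the 11 T cell markers, 5 were expressed, among them TRBC1 at a TPM of 330 and 385 and TRAC at 75 and 69. The B cell and myeloid markers reported were mostly at or near 0. The T cell, B cell and myeloid markers at a TPM of 5 or more in each library, named after their values were seen, were CD3E, TRBC1, TRAC, CD28, CD6, CD68 and S100A8. In RNA from whole dishes, fewer cells with a transcript and less of it per cell cannot be told apart.

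NCR3 (NCBI Gene ID 259197) had the highest level of the 10 genes, with a TPM of 393 in the control and 396 with PPMX-T003. Its level exceeded that of 97.9% of the 19076 genes with any count. SLAMF7 (57823) followed at 341 and 342. CD244 (51744), the receptor for CD48, was at 153 and 149, and CD96 (10225) at 150 and 124. CD244 was above CD96 in both libraries, but the ranges of these 2 genes over the libraries overlapped. NCR1 (9437) was next at 74 and 62. HAVCR2 (84868) at 58 and 52 was above CD2 (914) at 56 and 49, again with overlapping ranges. TIGIT (201633) at 28 and 30 and SLAMF6 (114836) at 18 and 19 were the least abundant of the expressed genes, and SLAMF6 still exceeded 66.1% of genes with any count. The order was the same in both libraries, and apart from these 2 pairs the ranges of neighbours did not overlap. Each range runs between the control and the PPMX-T003 value, so it does not measure a spread between dishes of the same condition.

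**Figure D1:**
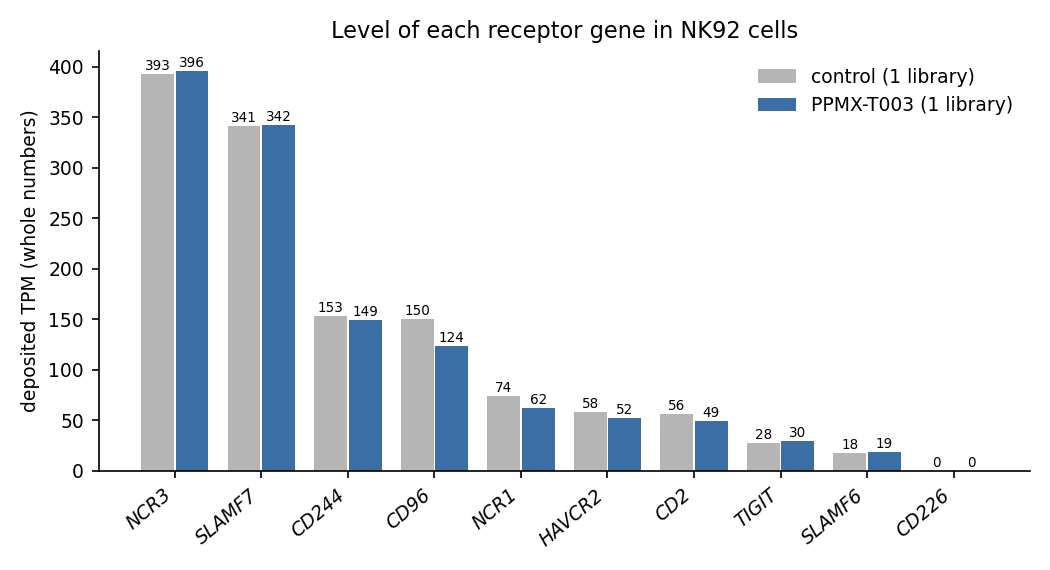
Deposited TPM (rounded to whole numbers) of the 10 receptor genes in the control (grey) and PPMX-T003 (blue) library, 1 library each, ordered by mean level. NCR3 and SLAMF7 stand above 300 in both libraries, and CD226 is listed at 0.

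CD226 (10666) had 47 counts in the control and 38 with PPMX-T003, and is listed at a TPM of 0 in both libraries. Scaled to library size as CPM, this was 1.00 CPM (95% Clopper-Pearson interval 0.738 to 1.34) and 0.881 CPM (0.623 to 1.21). The receptors that share its ligands were above it in TPM, per length, as given before. In CPM, CD96 had 253 (248 to 257) in the control and 215 (211 to 219) with PPMX-T003, and TIGIT had 43.7 (41.8 to 45.7) and 46.4 (44.4 to 48.5). The activating receptor CD226 was thus barely detected in cells that expressed CD96 and TIGIT. These intervals, like those below, cover counting error only.

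The 10 genes lie on 6 chromosomes (RefSeq gene spans, GRCh38). SLAMF6 (chr1:160485036-160523255), SLAMF7 (chr1:160739057-160754821) and CD244 (chr1:160830160-160862887) belong to the cluster of SLAM family genes, and CD2 lies on another part of the same chromosome (chr1:116754430-116769229). CD96 (chr3:111542197-111665996) and TIGIT (chr3:114294028-114310288) share chromosome 3. HAVCR2 is at chr5:157085832-157109044, NCR3 at chr6:31588895-31593006, CD226 at chr18:69853274-69961773 and NCR1 at chr19:54898198-54938208. Neighbours in the SLAM cluster differed widely in level. Along the chromosome, SLAMF6 had a TPM of 18 and 19, CD84 had 2 and 0 counts, SLAMF1 had a TPM of 14 and 13, CD48 of 659 and 604, SLAMF7 of 341 and 342, LY9 of 1 and 2, and CD244 of 153 and 149. CD48, the ligand of CD244, was thus the most abundant of these 7 neighbours, and CD84 was not detected.

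Differences between the libraries were expressed as log2 fold changes of CPM, PPMX-T003 against control, with library sizes adjusted by TMM (a trimmed mean of the log ratios of all genes). Of the 10 receptor genes, 0 were at least 1.2-fold higher, against 12.2% of the 13665 genes that reached 20 counts in both libraries together, and 0 were at least 1.2-fold lower, against 12.4%. None differed 2-fold, against 2.64%. Since genes with few counts scatter more, the shares were also taken over the 6618 genes with as many counts as the 9 expressed receptors (1985 to 37255), where 1.93% were at least 1.2-fold higher, 4.71% at least 1.2-fold lower and 0.0453% differed 2-fold. A 95% Clopper-Pearson interval for how a gene's reads were split between the libraries lay above 0 for 2 receptor genes, against 21.8% of all genes and 27.3% of those of like count. It lay below 0 for 4, against 23.9% and 34.8%, and held 0 for 4. With upper quartile scaling it lay above 0 for 4 genes. These intervals compare the libraries, not the conditions. The median log2 fold change of the 10 genes was -0.041, beside -0.0020 for all 13665 genes, and that of the 9 expressed genes was 0.013. With the fit on length and GC content described below removed, the median of the 9 expressed genes turned to -0.023.

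**Figure D2:**
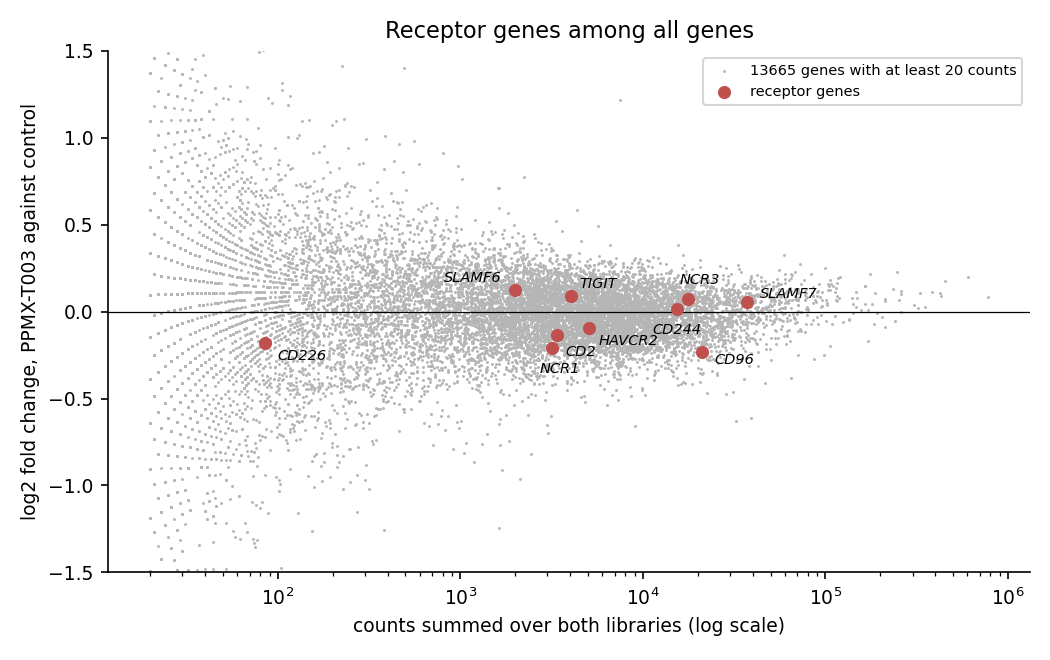
Log2 fold change (PPMX-T003 against control) against the counts summed over both libraries (log scale), with 1 grey point for each of the 13665 genes and the 10 receptor genes in red; 124 genes lie beyond the axis at 1.5. The receptor genes lie between -0.23 and 0.12, within the spread of genes of like count.

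CD96 had the lowest value among the receptors. It went from 11822 counts in the control to 9279 with PPMX-T003, a log2 fold change of -0.23 (95% counting interval -0.27 to -0.19). Of the 6618 genes of like count, 6.71% were as low or lower. NCR1 went from 1764 to 1408 counts (-0.21, interval -0.31 to -0.11), and 9.26% of genes of like count were as low or lower. Both values lay inside the central 95% of these genes, which ran from -0.31 to 0.25. NCR1 and NCR3, receptors of the same class, thus differed in opposite directions in the TMM-scaled counts, since NCR3 went from 8932 to 8656 counts (0.072, interval 0.029 to 0.11), although the direction of NCR3 turned once the trend with transcript length and GC content described below was removed.

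CD2 (1838 and 1541 counts) was at -0.14 (interval -0.24 to -0.039). HAVCR2 (2702 and 2334 counts) was at -0.094 (interval -0.17 to -0.014). Annotated exons of HAVCR2 and its neighbour MED7 overlap on the same strand, and MED7 had 900 and 775 counts (-0.098, interval -0.24 to 0.042), so that the value of HAVCR2 is uncertain where the counting divided reads between them. For CD226 the interval from -0.85 to 0.46 around -0.18 was too wide to show a difference at this depth.

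The 3 SLAM family receptors of the group had values of 0.013 to 0.12 in the counts. SLAMF7, a self-binding receptor, went from 19047 to 18208 counts, which after scaling is a log2 fold change of 0.052 (interval 0.023 to 0.082). SLAMF6, likewise self-binding, was at 0.12 (991 and 994 counts, interval -0.0068 to 0.25), and CD244 at 0.013 (7960 and 7403 counts, interval -0.033 to 0.058). TIGIT was at 0.087 (2046 and 2004 counts, interval -0.0023 to 0.18). The intervals of SLAMF6, CD244 and TIGIT held 0, those of SLAMF6 and TIGIT narrowly, and with upper quartile scaling these 2 lay above it. With the deposited TPM, CD244 was at -0.038, and SLAMF7 at 0.0042, below its interval. TIGIT and CD96, which share ligands, had counting intervals that did not overlap. Intervals outside 0 were common among genes of like count, with 27.3% above and 34.8% below. With the fit on length and GC content described below removed, CD96 was at -0.17, outside its interval, and TIGIT at 0.12.

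**Figure D3:**
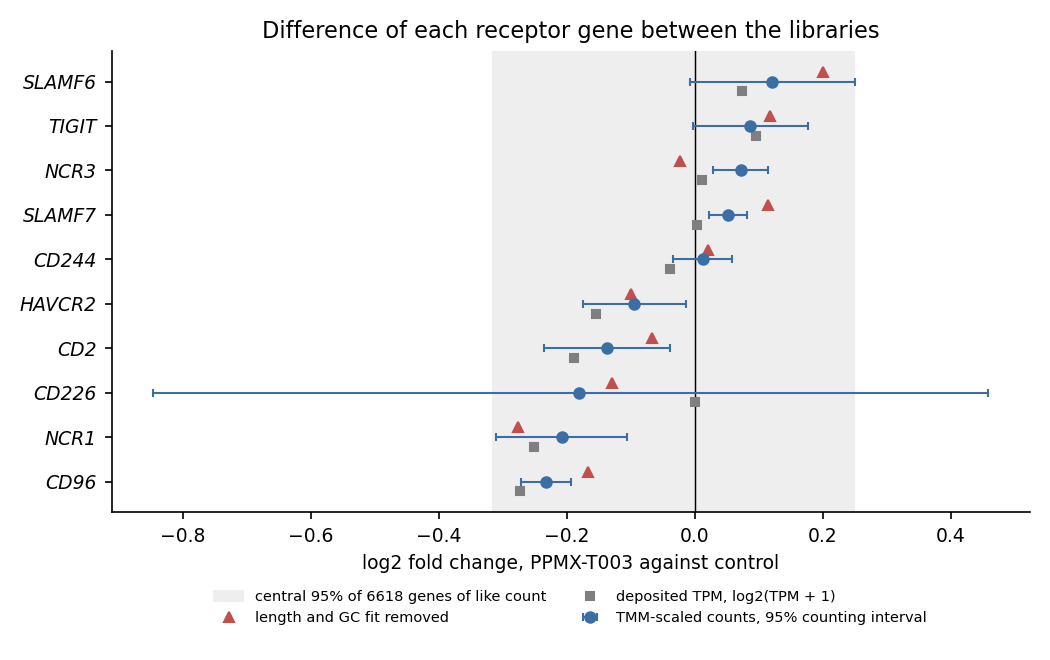
Log2 fold change of each receptor gene with its 95% counting interval (blue, 1 library per condition), with the fit on length and GC content removed (red triangles) and on the scale of log2(TPM + 1) (grey squares). The shaded band is the central 95% of the 6618 genes with as many counts as the 9 expressed receptors, from -0.31 to 0.25, and applies to the blue values only, among which CD96 and NCR1 lie toward its lower side and inside it.

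Differences followed the GC content of the transcripts in the table as a whole. When genes were divided by GC content into 10 groups of equal size, the median log2 fold change was -0.13 in the group of lowest content and 0.12 in that of highest content (61.7% to 80.6%). CD2 (GC content 40.3%) and CD96 (42.7%) lie in the part where most genes were lower, NCR1 (55.5%) and NCR3 (58.4%) in the part where most were higher. Among genes with at least 200 counts within 1 percentage point of GC content, the median was -0.11 for the genes around CD2, -0.080 for those around CD96, 0.063 for those around NCR1 and 0.081 for those around NCR3. Once a robust fit on length and GC content had been subtracted, NCR1 was at -0.28, CD96 at -0.17, HAVCR2 at -0.100 and CD2 at -0.067, while SLAMF6 was at 0.20, TIGIT at 0.12 and SLAMF7 at 0.11. NCR3 was then at -0.023. NCR1, and not CD96, was therefore the lowest receptor gene after this step, and it was the 1 gene of 10 that then passed 1.2-fold. In the same setting 9.8% of 12547 genes were at least 1.2-fold lower. The central 95% of genes of like count, taken again in this setting once the data had been seen, ran from -0.26 to 0.21 over 6587 genes, and NCR1 was the 1 receptor gene outside it. Before the fit, the central 95% of the genes around NCR1 in GC content ran from -0.30 to 0.35. The value of NCR1 in the counts (-0.21) lay inside that range. The part of RNA quality or library preparation in this trend was not tested.

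**Figure D4:**
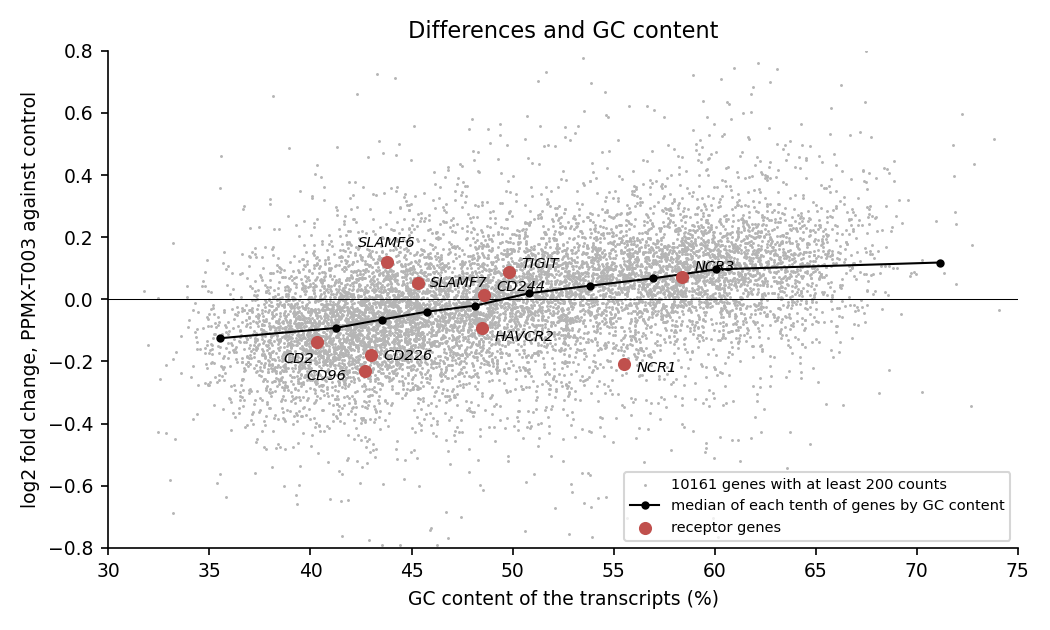
Log2 fold change against the GC content of the transcripts (%), with 10161 genes of at least 200 counts in grey (40 lie beyond the axes), the medians of 10 equal groups of genes in black and the 10 receptor genes in red. The medians go from -0.13 to 0.12, and NCR1 at a GC content of 55.5% lies below this line.

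The stretches of 150 bases before the start sites of CD96 (chr3:111542047-111542196), NCR1 (chr19:54905998-54906147) and CD2 (chr1:116754280-116754429) are shown because the intervals of these genes lay below 0, as did that of HAVCR2. They are the plus strand of GRCh38.p14 from the RefSeq promoter table, which matched 7 of the 10 genes and not HAVCR2, NCR3 or SLAMF7. The windows of CD96 and CD2 end at the base before the gene span, and that of NCR1 lies inside the span, which begins farther upstream. Capitals mark matches, on either strand, to the letters TGTGGT (RUNX), GGAAGT (ETS), TGANTCA (AP-1) and TCACAC (T-box).
CD96: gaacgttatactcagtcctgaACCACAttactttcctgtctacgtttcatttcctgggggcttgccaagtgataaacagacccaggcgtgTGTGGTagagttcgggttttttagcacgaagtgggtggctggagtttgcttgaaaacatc
NCR1: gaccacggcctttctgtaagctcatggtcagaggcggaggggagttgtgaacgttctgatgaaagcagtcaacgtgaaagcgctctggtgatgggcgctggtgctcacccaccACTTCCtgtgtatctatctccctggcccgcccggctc
CD2: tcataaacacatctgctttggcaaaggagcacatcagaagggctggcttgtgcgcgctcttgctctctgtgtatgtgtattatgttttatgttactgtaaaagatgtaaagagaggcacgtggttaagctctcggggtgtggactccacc
CD96 held 2 RUNX matches, with first bases at -129 and -60 from the start site, and NCR1 held 1 ETS match at -37. CD2 held none of the 4 motifs. Among the matched genes whose intervals held 0, SLAMF6 held 1 ETS match at -28 and CD244 1 AP-1 match at -71, while TIGIT and both windows of CD226 held none, so that the ETS letters were not limited to a gene that was lower. Of 35116 promoter windows of the same length, 6.59% held the RUNX letters, 13.8% the ETS letters, 4.17% the AP-1 letters and 5.82% the T-box letters. No motif was found in more than 1 of the 3 windows, and no 2 matches overlapped. A match describes the letters only.

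Genes that act with these receptors were taken from 5 lists. NCR2, LY9, LGALS9, CD58, CEACAM1, TNFRSF9, CD274 and KLRK1 are named from them after their values were seen. Of 10 other receptors of the same families, 5 were expressed. PVRIG, an inhibitory nectin-binding receptor, had a TPM of 155 and 168 (5103 and 5290 counts, log2 fold change 0.17, interval 0.11 to 0.22). It shares exons with STAG3 and has a near-identical pseudogene, PVRIG2P, that went from 97 to 10 counts, so that its value is uncertain. The summed counts of PVRIG and PVRIG2P gave 0.14 (0.089 to 0.20). The GC content of PVRIG is 62.9%, and its value was 0.056 with the fit on length and GC content removed and 0.015 with the longest transcripts in it. SLAMF1, a self-binding SLAM family receptor, did not differ detectably (-0.046, -0.17 to 0.077), and SLAMF8 was higher (228 and 268 counts, 0.35, 0.090 to 0.61). CD84 had 2 and 0 counts, and SLAMF9 0 in both libraries, which by the same 95% interval allows up to 0.0788 CPM in the control and 0.0855 CPM with PPMX-T003. Of the 5 genes of this list with at least 20 counts, 2 were at least 1.2-fold higher (SLAMF8 and LY9, the latter with an interval that held 0) and 0 lower, beside 12.2% and 12.4% of all compared genes. The median of these 5 was 0.17. NCR2, another natural cytotoxicity receptor, had a TPM of 31 and 35, below NCR1 and NCR3 in both libraries.

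Of 13 ligand genes, 9 were expressed in the same cells. PVR and NECTIN2, which CD226 and TIGIT bind, had 0 counts in both libraries, as did NECTIN1. PVR shares exons with CEACAM19 on the same strand, so that its 0 is uncertain. NECTIN3, another nectin, was present and lower with PPMX-T003 (1766 and 1145 counts, log2 fold change -0.51, interval -0.62 to -0.40). CADM1, the ligand of the receptor CRTAM, was higher (440 and 565 counts, 0.48, 0.30 to 0.66), while its TPM was 4 in both libraries. CD48 was at a TPM of 659 and 604 (15409 and 13571 counts, -0.066, -0.099 to -0.033), above CD244 in both libraries. HMGB1, a nuclear protein that TIM-3 can bind, had the most counts (49332 and 44904) with no detectable difference (-0.018, -0.037 to 0). With the fit on length and GC content removed it was at 0.095 (0.12 with the longest transcripts), and CD48 at -0.015 (-0.059). Of the 9 ligand genes with at least 20 counts, 2 were at least 1.2-fold higher (CADM1, and LGALS9 with an interval that held 0) and 1 lower (NECTIN3), beside 12.2% and 12.4% of all compared genes, and their median was -0.066. CD58 lay just short of 1.2-fold lower (-0.26, -0.41 to -0.11), at -0.12 with the deposited TPM. CEACAM1 was at -0.23 in the counts and passed 1.2-fold with the deposited TPM (-0.28). The counting interval lay above 0 for 1 ligand gene and below 0 for 4, against 21.8% and 23.9% of all compared genes. CD48 exceeded 98.9% of genes with any count, whereas NECTIN1 and NECTIN2 were not detected, nor was PVR within that limit.

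All 21 adaptors and tail enzymes were expressed. SH2D1A, the adaptor SAP of the SLAM family, had a TPM of 246 and 245, although it shares exons with TEX13D on the same strand, and SH2D1B 93 and 81. CD247, the signalling chain of NCR1 and NCR3, was at 205 and 216, and FCER1G, which pairs with the same receptors, at 8 and 7. TYROBP, the partner of NCR2, was at 17 and 19. These 5 genes were picked for their ties to the receptors. CSK, a kinase that restrains SRC family kinases, had the most counts of the list (16937 and 16553, log2 fold change 0.084, interval 0.053 to 0.12), although it was at -0.026 once the fit on length and GC content was removed. The phosphatase PTPN11 was at -0.18 (-0.21 to -0.14), and at -0.16 with the fit removed or -0.099 with the longest transcripts in it. CD2AP, which binds the tail of CD2, was the lowest of the list (7893 and 5908 counts, -0.30, -0.35 to -0.25) and the 1 gene at least 1.2-fold lower, but the GC content of its transcripts is 37.0%, and the difference was -0.13 with the fit removed. ZAP70, a kinase that binds phosphorylated CD247, was the highest in the counts (0.22, 0.17 to 0.26), at 0.11 with the fit removed. With the deposited TPM, ZAP70 was at 0.075, below its interval. None of the 21 was at least 1.2-fold higher, beside 12.2% of all compared genes higher and 12.4% lower, and their median was 0.049. Most of the 21 had 1985 to 37255 summed counts, and among all genes in that range only 1.93% were higher and 4.71% lower.

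Among 10 other costimulatory receptors, 4 were expressed. ICOS (3694 and 3029 counts, log2 fold change -0.17, interval -0.24 to -0.099) and CD28 (2252 and 1803, -0.20, -0.29 to -0.11), which belong to the same receptor family, were lower, and CD160 was higher (1077 and 1252, 0.33, 0.22 to 0.45). CD160 kept this with the fit on length and GC content removed (0.37), while ICOS and CD28 were then at -0.061 and -0.091. A fit that used the longest transcripts left ICOS at -0.10, inside its interval, and CD28 at -0.11, just outside its own. CD27, TNFRSF18 and CD59 had 0 counts in both libraries. Of the 6 genes with at least 20 counts, 2 were at least 1.2-fold higher (CD160, and TNFRSF9 with 33 and 49 counts) and 0 lower, beside 12.2% and 12.4% of all compared genes, with a median of -0.036. This median turned to 0.023 with the fit on length and GC content removed. KLRK1, the NKG2D receptor gene of the killer lectin-like family, was at a TPM of 17 and 16. It shares exons on the same strand with the read-through gene KLRC4-KLRK1, so that this level is uncertain.

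Of 15 other checkpoint genes, 8 were expressed. CD200R1, an inhibitory receptor, had the most counts (8197 and 6400, log2 fold change -0.24, interval -0.29 to -0.19), followed by VSIR (2834 and 3005, 0.20, 0.13 to 0.28). With the fit removed, CD200R1 was at -0.14 and VSIR at 0.17. KLRG1, an inhibitory lectin-like receptor, was the farthest from 0 (302 and 186 counts, -0.58, -0.85 to -0.31). PDCD1, SIGLEC7, SIGLEC9 and CD300A had 0 counts in both libraries. Of the 9 genes with at least 20 counts, 0 were at least 1.2-fold higher and 2 lower (KLRG1 and CD274), beside 12.2% and 12.4% of all compared genes, with a median of 0.00060. This median turned to -0.016 with the fit removed. TIGIT and HAVCR2 were thus expressed in cells in which no read of PDCD1, the gene of the checkpoint receptor PD-1, was found.

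**Figure D5:**
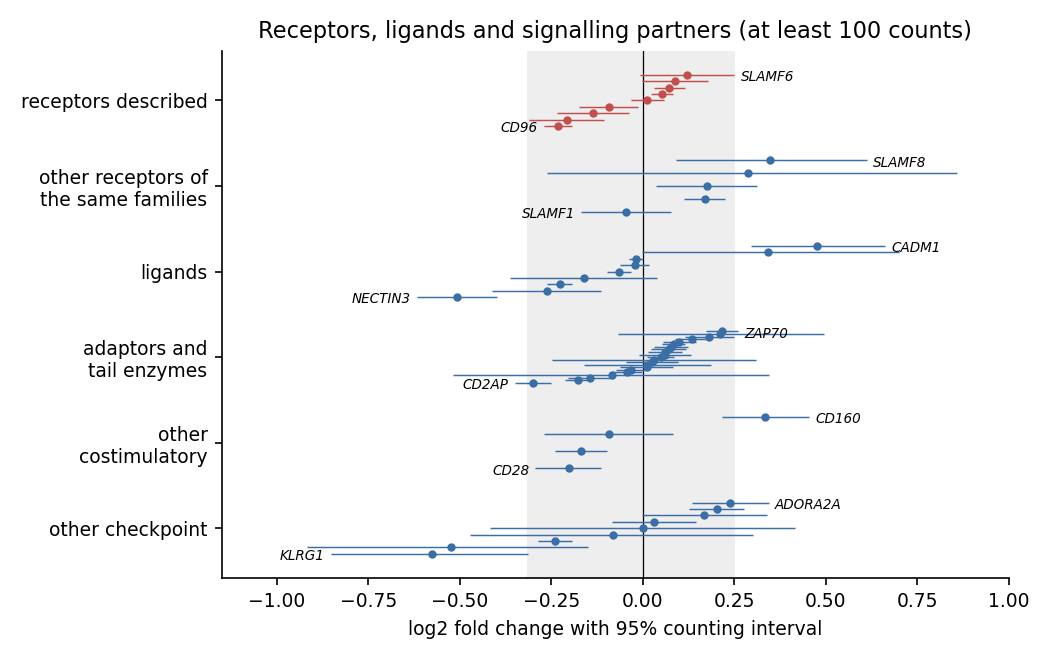
Log2 fold change with 95% counting interval of each gene with at least 100 counts in the receptor group (red, without CD226) and in 5 companion lists (blue), with the lowest and highest gene of each named. The shaded band is the central 95% of 6618 genes with 1985 to 37255 summed counts, and genes with fewer counts scatter more. Among genes within that count range, NECTIN3 lies below the band and CD160 above it.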

How the data were processed

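Counts of reads per gene were deposited by the authors together with FPKM and TPM. According to the submitters' processing notes, they used Trimmomatic 0.38, HISAT2 2.2.0, StringTie 2.1.3b and edgeR 3.17, with build hg38. The deposited FPKM and TPM are rounded to whole numbers and were treated as a score. Counts from 1000 upwards carry a comma, which was removed, and the count columns were recorded under a general unit. No count model was therefore fitted. Library sizes were adjusted by TMM over the whole table, trimming 30% by log ratio and 5% by level (factors 1.0007 and 0.9993), and log2 CPM used a prior count of 2. The calculation was tested on simulated counts with counting error only, which cannot show how it does with differences between dishes. It ran in Python 3.11.15 (statsmodels 0.14.6, scipy 1.17.1, pandas 2.3.3, numpy 2.4.6). Figures were drawn with matplotlib 3.10.9. Genes with at least 20 summed counts were compared.

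Intervals are 95% Clopper-Pearson intervals of the share of a gene's reads found in the PPMX-T003 library, as log2 ratios. They cover neither the estimate by which StringTie divides reads between overlapping genes nor differences between dishes. Whether strand was used in counting is not given in the sources used here. NCR3 and CD226 share exons with LST1 and DOK6 on the opposite strand, with 589 and 586 counts for LST1 and 0 for DOK6. SH2D1A, KLRK1, LGALS9 and CD68 share exons with another gene on the same strand, so that their levels and differences are uncertain. The same holds for PVR, CD27, CD59, CD22 and CD79B, whose counts of 0 or near 0 are uncertain for this reason. Transcript length and GC content were medians over the protein-coding transcripts of a gene in GENCODE 29, or over all its transcripts where it had none that codes for protein, and were known for 91.8% of the compared genes and all 10 receptors, and a robust linear model of fold change by log2 length and GC content used the 10161 genes of at least 200 counts.

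Members and lists were chosen with earlier results of these data known. Named from each companion list were the 2 genes of most counts, the 2 with at least 100 counts farthest from 0 by the interval bound nearest to 0, and genes with no more than 3 counts in both libraries. From each marker list the gene of most counts and those not detected were named. The result of 1 gene of the B cell list is not reported here. Alternatives were 3 other scalings, prior counts of 0.5 and 5, log2(TPM + 1), other filters and thresholds, means, and removal of the length and GC fit.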

Additional observations from a re-analysis of the deposited data

How the results depend on the processing

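No paired analysis was possible because there was 1 library in each group, and for the same reason no replicate could be left out. Under the 3 other scalings and both prior counts, no receptor gene passed 1.2-fold in either direction, and the log2 fold changes of the receptor genes and of the companion genes chosen by rule stayed inside their counting intervals. With upper quartile scaling the counting interval lay above 0 for 4 receptor genes instead of 2, which follows from the scaling, since all values moved up by 0.012. At 1.1-fold, 3 receptor genes were lower (CD96, NCR1 and CD226, the last with an interval that holds 0) and 0 higher, against 25.2% and 24% of all genes, which follows from the threshold. With the deposited TPM, log2 fold changes shifted downward, with a median shift of -0.054 over the 6112 genes at a TPM of 20 or more. On that scale 1 receptor gene was at least 1.2-fold lower (CD96, -0.27), against 13.1% of all genes. Among all genes 938 were then higher and 1788 lower, against 1661 and 1700 in the TMM-scaled counts. With the fit on length and GC content removed, 1 was lower (NCR1, -0.28), as was 1 with the longest transcripts in the fit (NCR1, -0.30), which was added once the data had been seen. Of all genes, 9.8% and 10.1% were lower in these settings, and NCR1 lay below the central 95% of genes of like count in both (from -0.26 and -0.24), but inside it in the counts and with TPM (from -0.31 and -0.38). In these settings NCR3 turned to -0.023 and -0.075 and CSK to -0.026 and -0.013, IL2RB turned to -0.011 with median transcripts, and NKG7 turned to -0.013 with the longest. HMGB1, whose interval holds 0, went from -0.018 to 0.095 and 0.12, and CD244, likewise, from 0.013 to -0.038 with TPM. The cause was not tested. The median of the receptor genes lay between -0.050 and 0.013, their mean was -0.051, and 9 receptor genes were expressed at a TPM of at least 5 or a CPM of at least 1. Depth limits CD226, whose interval spans from -0.85 to 0.46.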
